A study of Homo sapiens with 23 samples.

Results

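The SLIT, ROBO and plexin axon guidance genes were described as 7 windows of the human genome (build hg19), and their members are the ChIP-seq peaks of 5 deposited lists that overlap those windows by at least 1 bp. The windows are SLIT1 (chromosome 10, 98.7 to 99 Mb), SLIT2 (chromosome 4, 20.2 to 20.68 Mb), SLIT3 (chromosome 5, 168.03 to 168.78 Mb), ROBO1 (chromosome 3, 78.6 to 79.87 Mb), ROBO2 (chromosome 3, 77.03 to 77.75 Mb), PLXNA2 (chromosome 1, 208.14 to 208.47 Mb) and PLXNA4 (chromosome 7, 131.75 to 132.39 Mb). They held 171 of the 52708 peaks of the 5 lists. The genes were chosen from measured values, the peak counts of these same lists, so their peak densities and overlaps are given as a description and no test was run on them. A window can reach past its gene or leave part of it out. For ROBO2, a RefSeq start at base 76310630 of build GRCh38.p14 lies well below the window. No hg19 annotation was used, so a peak is placed in a window and not in an exon, an intron or a promoter.

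The study examined LSD1, its isoform LSD1+8a and SVIL, which the series' design calls a cofactor of LSD1+8a, during maturation of SH-SY5Y cells, an established human neuroblastoma line. All cells of the 5 lists carried an shRNA, either a control one or one against LSD1+8a (the knockdown). By the protocol, cells received retinoic acid at 10 µM over 4 days, followed by the neurotrophin BDNF at 50 ng/mL over 3 days, and day 0 and day 3 are days of BDNF. The lists are LSD1 in control cells on day 0 (16882 peaks), LSD1 in control cells on day 3 (20748), LSD1 in knockdown cells on day 0 (10248), LSD1+8a in control cells on day 3 (3378) and SVIL in control cells on day 3 (1452). Each comes from 1 library, so intervals below are exact 95% intervals (Poisson for counts, Clopper-Pearson for shares) that cover counting error only, and no difference between lists has a replicate check. Read totals are not given in the sources used, so lists of unlike length may differ in depth. Peak lists measure no RNA or protein, so neither the knockdown nor the cells' neuronal state could be checked in them. LSD1+8a on day 3 in knockdown cells was not analysed here, and the series has no LSD1 library of those cells on that day.

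SLIT proteins are secreted ligands that bind ROBO receptors on growth cones and repel axons, best known for keeping axons from crossing or recrossing the midline. A-type plexins are receptors, with neuropilins, for semaphorins, another class of guidance cues. LSD1 (KDM1A) is a histone lysine demethylase that acts on chromatin at enhancers and promoters, and LSD1+8a is its splice isoform found in neurons. SVIL, supervillin, is best known as an actin-binding membrane protein.

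The 250 bases before each RefSeq start (build GRCh38.p14) are shown for the genes with the most and the fewest day 3 LSD1 peaks per 100 kb, PLXNA2 and ROBO1, because no genome of the peaks' build was used to print the peaks themselves. Capitals mark CG dinucleotides, and each sequence reads 5′ to 3′ on the minus strand, on which both genes lie.
PLXNA2, chr1:208244385-208244634: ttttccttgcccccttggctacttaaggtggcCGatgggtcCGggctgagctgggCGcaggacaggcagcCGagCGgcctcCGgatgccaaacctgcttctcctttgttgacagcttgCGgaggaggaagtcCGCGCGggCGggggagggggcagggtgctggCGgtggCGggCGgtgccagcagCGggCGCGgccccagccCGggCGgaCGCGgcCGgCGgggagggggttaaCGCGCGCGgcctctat
ROBO1, chr3:79019460-79019709: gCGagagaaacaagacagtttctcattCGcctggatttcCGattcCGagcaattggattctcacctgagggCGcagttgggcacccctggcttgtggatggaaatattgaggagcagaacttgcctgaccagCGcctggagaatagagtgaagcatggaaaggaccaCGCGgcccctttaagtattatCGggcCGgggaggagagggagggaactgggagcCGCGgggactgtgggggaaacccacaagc
ROBO1, chr3:79767999-79768248: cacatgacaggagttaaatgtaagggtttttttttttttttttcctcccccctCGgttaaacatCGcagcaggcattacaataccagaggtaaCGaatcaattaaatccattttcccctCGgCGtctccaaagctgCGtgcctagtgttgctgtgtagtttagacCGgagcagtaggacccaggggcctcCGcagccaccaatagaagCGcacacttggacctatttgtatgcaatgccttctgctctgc
The PLXNA2 stretch holds 27 CG dinucleotides at 72.4% G+C. The ROBO1 stretches hold 12 at 56.8% and 9 at 48%. All 7 symbols matched, with 9 starts in all, and SLIT1 (25 CG dinucleotides), SLIT2 (30), SLIT3 (16) and PLXNA4 (23) have 1 start each, while the ROBO2 starts hold 7 and 27. The median was 23 over these 9 starts and 11 over all 35116 starts of the table. These coordinates cannot be set base by base against the peaks, which are on another build, and nothing is drawn from them about binding.

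All 7 windows together (4490 kb, or 0.148% of the span of the lists) held 45 LSD1 peaks on day 0 and 85 on day 3 in control cells, and 28 on day 0 in knockdown cells. The LSD1+8a list had 5 peaks there and the SVIL list 8. Per 100 kb, the densities were 1.00 (0.731 to 1.34), 1.89 (1.51 to 2.34), 0.624 (0.414 to 0.901), 0.111 (0.0362 to 0.260) and 0.178 (0.0769 to 0.351), in the same order. Against the density over each whole list, that was 1.81-fold (1.32 to 2.42), 2.78-fold (2.22 to 3.43), 1.85-fold (1.23 to 2.67), 1.00-fold (0.326 to 2.34) and 3.73-fold (1.61 to 7.35). The values for LSD1 and SVIL were above 1, on a choice of genes that had used these counts, and that for LSD1+8a rests on 5 peaks. The lowest score was 71.72 in the SVIL list and 50 or 50.01 in the other lists, so the lists may not have been cut alike. With peaks at or above 71.72 only, the LSD1 values were 1.47, 3.23 and 1.57-fold, in the same order, and no LSD1+8a peak remained in the windows. Left out 1 at a time, SLIT3 took the day 3 LSD1 value to 2.00-fold, the day 0 control value to 1.25-fold and the LSD1+8a value to 0.481-fold.

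LSD1 peaks were unevenly spread over the 7 genes. SLIT3, PLXNA2 and PLXNA4 make up 38.3% of the window length and held 64 of the 85 day 3 LSD1 peaks (75.3%), 35 of the 45 day 0 control peaks (77.8%) and 21 of the 28 knockdown peaks (75.0%). On day 3, PLXNA2 had 4.55 peaks per 100 kb (2.54 to 7.5) and SLIT3 4.53 (3.14 to 6.33), followed by PLXNA4 with 2.34 (1.31 to 3.87), SLIT1 with 1.67 (0.541 to 3.89), SLIT2 with 1.25 (0.459 to 2.72), ROBO2 with 0.694 (0.225 to 1.62) and ROBO1 with 0.394 (0.128 to 0.919). The intervals of every pair of neighbours in that order overlap. The order describes counts that the choice of genes had used, and no difference between genes was tested.

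**Figure D1:**
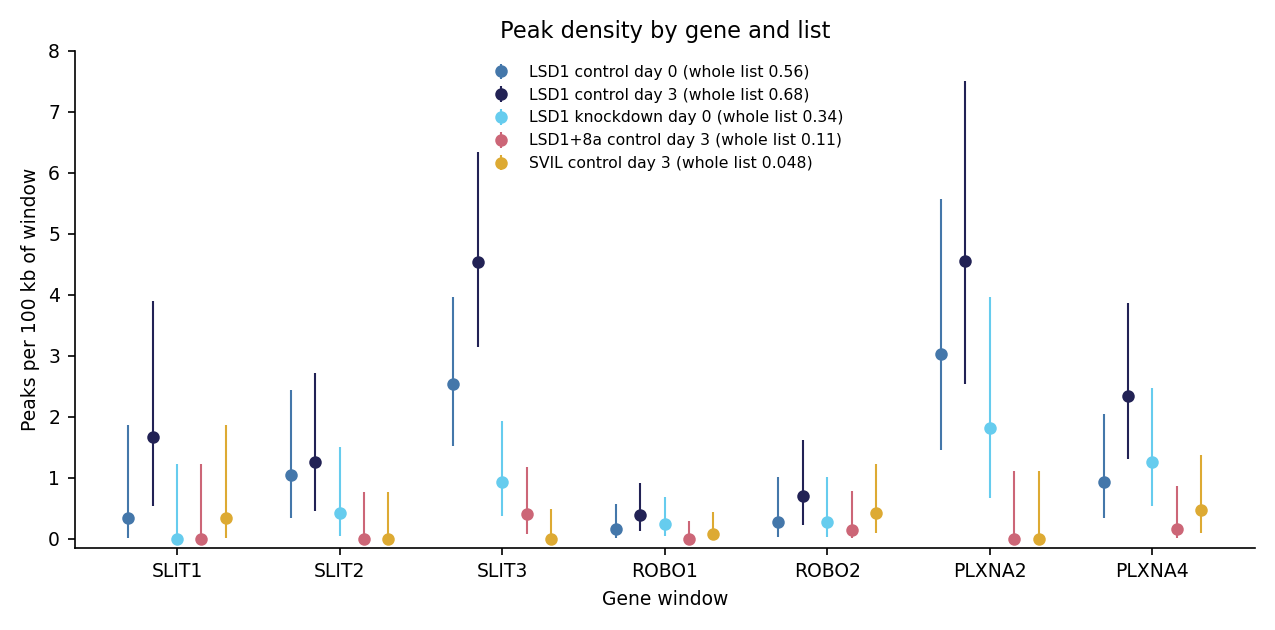
Peaks per 100 kb of each gene window (vertical axis) for the 5 lists (colours), with exact 95% Poisson intervals as bars and the density of the whole list in the legend. On day 3, LSD1 stands at 4.53 in SLIT3 and 4.55 in PLXNA2, against 0.394 in ROBO1.

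As a background, windows of the same width were laid end to end along the chromosomes, and the percentage with at least as many peaks as the gene's window was counted in the same list. The choice of genes had used these counts, so these percentages place the genes and support nothing further. The 7 windows were left in, so a gene's own peaks can be among the stretches counted. The 1 of 4043 stretches for SLIT3 on day 3 may be SLIT3 itself. Among the ligands, SLIT3 held 19 LSD1 peaks on day 0 in control cells, 34 on day 3 and 7 in knockdown cells. As many were found in 1.09% of stretches on day 0, in 0.0247% on day 3 (1 of 4043) and in 8.73% for the knockdown list. SLIT2 held 5, 6 and 2 peaks, which 20.9%, 22.2% and 38.2% of stretches reached. SLIT1 held 1 peak on day 0 (60.1% of stretches) and 5 on day 3 (13.8%), and no knockdown peak, which allows up to 1.23 peaks per 100 kb. Among the ligand genes, SLIT3 had the smallest percentage in each of the 3 LSD1 lists, and its largest was the 8.73% of the knockdown list. For SLIT2, 20.9% or more of stretches reached its count in every LSD1 list.

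The day 3 peaks of SLIT3 reached over the whole window. All 8 stretches of 100 kb in it (the last one shorter) held a day 3 LSD1 peak, with 8 peaks in the stretch from 168230001 to 168330000. A run of 11 consecutive peaks, at gaps of at most 25 kb, reached from 168183293 to 168272562 (89.3 kb). The highest-scoring SLIT3 peak, chr5:168402778-168404682, had 107 tags (reads counted in the peak by the authors) and a deposited fold enrichment of 31.47, and ranked 1700 by score among the 20748. The longest SLIT3 peak, chr5:168575087-168578581, spanned 3495 bp with 229 tags, and covered 3 separate day 0 control peaks of 15, 18 and 34 tags. On day 0 in control cells the highest-ranked SLIT3 peak was chr5:168199355-168200271 with 31 tags. In knockdown cells it was chr5:168196833-168197566 with 26 tags, and it overlapped a peak of both control lists. SLIT3 peaks covered 6.20% of its window on day 3, against 0.791% of the span for the whole list.

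SLIT2 held nearly the same places on both days. Each of its 5 day 0 control peaks was overlapped on day 3, and both knockdown peaks fell on 2 of those places. The strongest by score on day 3, chr4:20463887-20464814, had 82 tags, against 26 tags at the day 0 control peak and 45 at the knockdown peak there. At chr4:20489043-20490250 the tags were 97 on day 3, 39 on day 0 in control cells and 25 in knockdown cells. Tags were not scaled for depth, so these values show where peaks lie and not how binding differs. SLIT1 differed in that its only day 0 control peak (chr10:98734111-98734551, 11 tags) was not overlapped on day 3. Its 5 day 3 peaks lay elsewhere, 4 of them within 40.5 kb between 98900361 and 98940858, and none was overlapped by another LSD1 list.

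The receptor genes ROBO1 and ROBO2 have wide windows (1270 and 720 kb) with few peaks. ROBO1 held 2 LSD1 peaks on day 0 in control cells, 5 on day 3 and 3 in knockdown cells, which 79%, 67.4% and 56.1% of stretches as wide reached. ROBO2 held 2, 5 and 2, which 66.8%, 46.9% and 50.5% reached. Their counts were therefore common ones for stretches of this width. No 2 LSD1 peaks of either gene lay within 25 kb of each other in any LSD1 list.

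A ROBO1 peak of day 3 was nonetheless high in its list. The peak chr3:79563987-79564923 in the ROBO1 window had 80 tags and a fold of 78.12 on day 3, the highest fold of the 171 members, and ranked 695 of 20748 by score. No other list had a peak there. The other day 3 LSD1 peaks of the ROBO windows ranked between 3088 and 17246 by score. Their day 0 LSD1 peaks ranked between 7975 and 15556 of 16882 in control cells. In knockdown cells the ranks were between 3329 and 9976 of 10248. The 2 day 0 control peaks of ROBO1, at chr3:79068262-79069332 with 30 tags and chr3:79651376-79651926 with 17 tags, were each overlapped both on day 3 (40 and 39 tags) and in knockdown cells (32 and 18 tags). In ROBO2 the 5 day 3 peaks had between 43 and 58 tags and folds of 23.54 to 36.36, all above the list's median fold of 17.05. ROBO2 also held the single place of the 7 windows where 4 lists had a peak, chr3:77589999-77590908. The tags there were 12 for LSD1 on day 0 in control cells, 52 on day 3, 15 in knockdown cells and 12 for SVIL, and LSD1+8a had none.

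PLXNA2 held 10 LSD1 peaks on day 0 in control cells, 15 on day 3 and 6 in knockdown cells. As many were found in 1.35%, 0.163% and 2.58% of stretches of its width. The highest-scoring peak of the window on day 3, chr1:208232521-208233923, had 124 tags and rank 1082 on day 3, and the control day 0 peak on it had 76 tags and rank 677 of 16882. The knockdown peak there had 45 tags. Between 208264311 and 208418488, control cells had no LSD1 peak on day 0 and 6 on day 3. These 6 are all of the day 3 PLXNA2 peaks that no day 0 control peak overlapped. The stretch was picked after its values were seen. Its longest peak, chr1:208332034-208336646, spanned 4613 bp with 284 tags, the longest and the highest in tags of all members, and a knockdown peak of 49 tags lay under it.

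PLXNA4 held 6 LSD1 peaks on day 0 in control cells, 15 on day 3 and 8 in knockdown cells, reached by 23.3%, 2.3% and 4.43% of stretches of its width. On day 3, 11 consecutive peaks ran from 132070785 to 132185037 (114 kb) at gaps of at most 25 kb, the only run of at least 10 besides that of SLIT3. The highest-scoring one, chr7:132119415-132122125, had 241 tags, a fold of 22.06 and rank 1040. At that place the day 0 control peak had 54 tags and the knockdown peak 49. In control cells 3 of its 6 day 0 peaks were overlapped on day 3, against 9 of 10 in PLXNA2, and this difference was not tested. Of its 8 knockdown peaks, 6 lay within the span of the day 3 run.

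**Figure D2:**
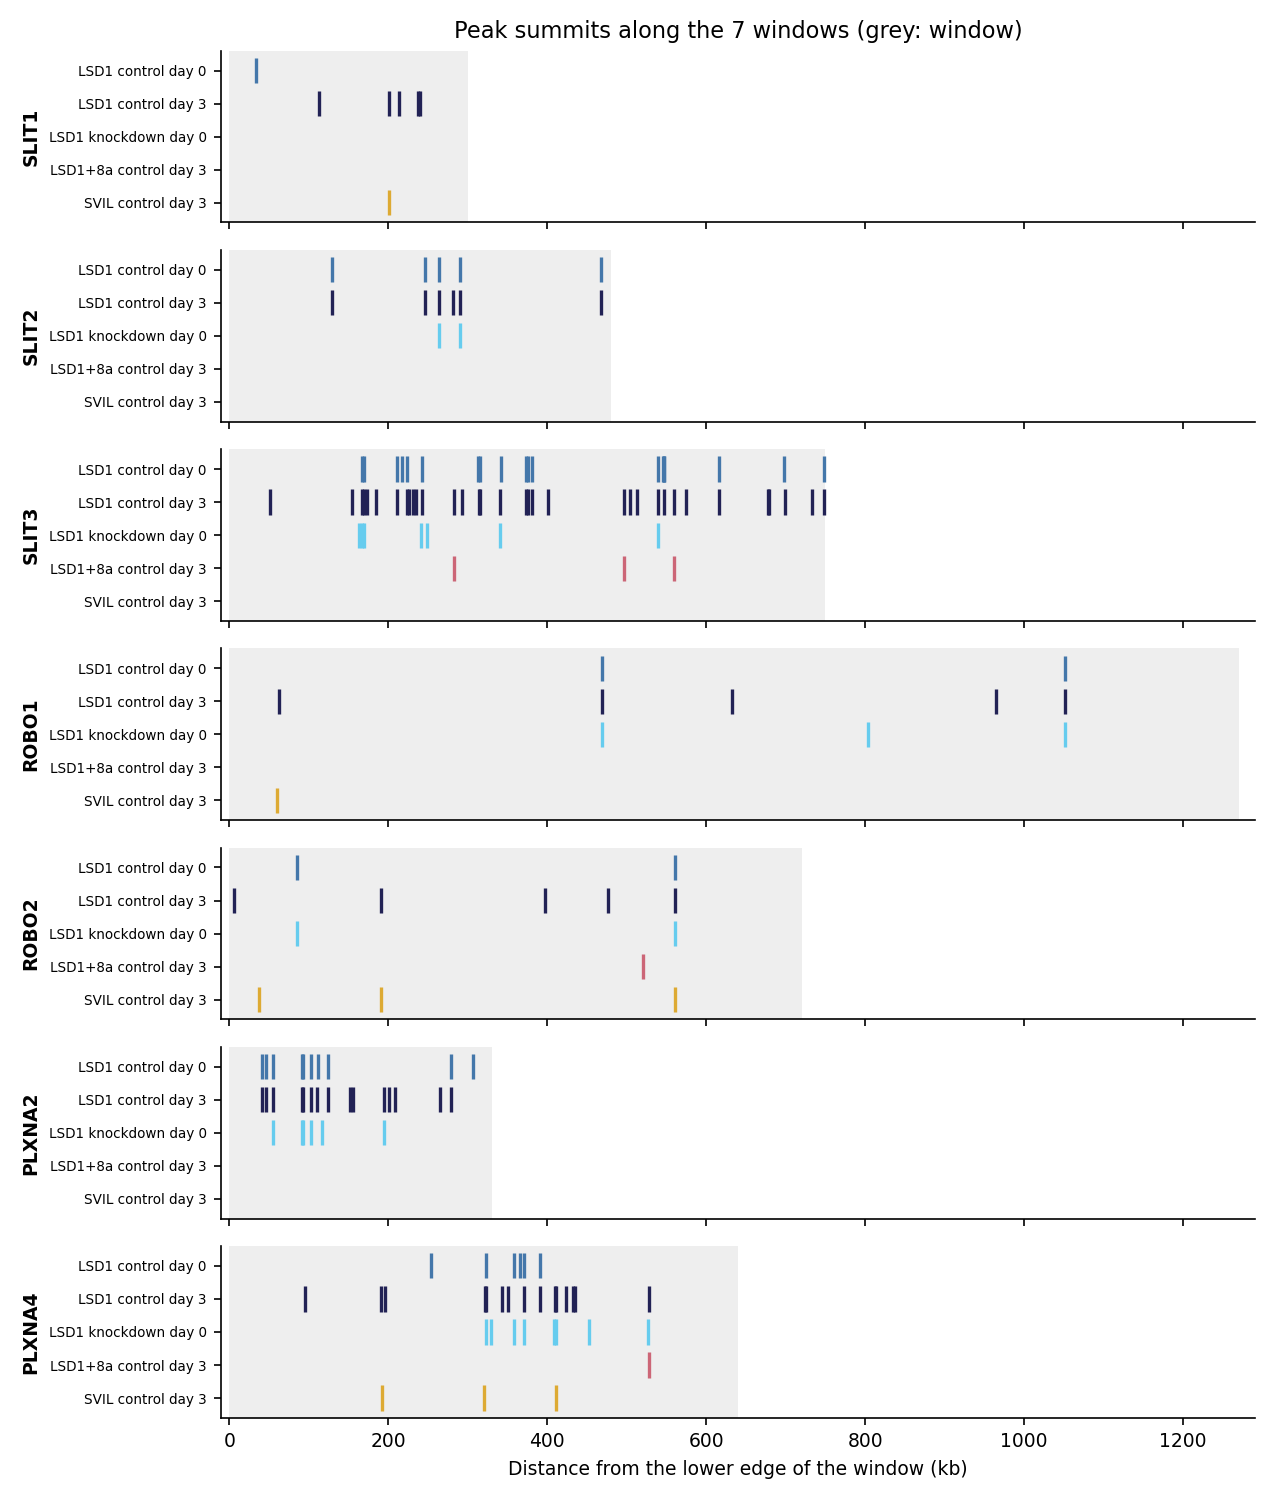
Summits of all member peaks (ticks) along each window, as distance from the window's lower edge in kb, with 1 row for each list and the window in grey. LSD1 summits crowd in SLIT3, PLXNA2 and the middle of PLXNA4, whereas ROBO1 has 5 day 3 summits over 1270 kb.

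Beyond the edges of the windows the density of day 3 LSD1 peaks was lower. Over 1 Mb on either side it was 0.854 per 100 kb (0.706 to 1.02), against 1.89 inside. A side was cut short where it met another window. Bases outside a window can still belong to its gene, as the ROBO2 start below its window shows. The stretch between ROBO2 and ROBO1 was counted for each of them, so its peaks are repeated in that total and its interval. SLIT3 had 0.95 outside and 4.53 inside, PLXNA2 1.30 and 4.55, and PLXNA4 1.20 and 2.34. For ROBO1 (0.324 outside, 0.394 inside) and ROBO2 (0.432 and 0.694) both values were low. Within 100 kb just outside all windows lay 14 LSD1 peaks of day 0 in control cells, 12 of day 3, 6 of knockdown cells, 2 of LSD1+8a and none of SVIL. For day 0 in control cells that band had 1.00 peak per 100 kb, as inside. Beside SLIT3 it had 2.50 against 2.53 inside, while beside PLXNA2 it had 2.00 against 3.03 and beside PLXNA4 none against 0.938. Over 1 Mb, day 0 control peaks stood at 0.628 outside and 1.00 inside, with 0.7 and 2.53 for SLIT3 and 0.85 and 3.03 for PLXNA2. The density was higher outside for SLIT1 (1.05 outside, 0.333 inside), ROBO1 (0.216 and 0.157) and ROBO2 (0.324 and 0.278). Of the 48 stretches of 100 kb in the windows, 20 held an LSD1 peak on day 0 in control cells (34.2% of stretches along the genome did), 31 on day 3 (38.9%), 15 in knockdown cells (23.8%), 5 in the LSD1+8a list (9.68%) and 8 in that of SVIL (4.2%).

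Between day 0 and day 3 of BDNF in control cells, the LSD1 peaks in the windows numbered 45 and 85, a ratio of 1.89, while the whole lists differ 1.23-fold in length. The share of the day 3 list in the windows was 1.54-fold (1.06 to 2.26) that of the day 0 list. It stayed above 1 under each of the 15 alternatives tried, from 1.34-fold with windows widened by 100 kb at each end to 2.39-fold in the upper 50% of each list by score. In 3 of the 15 the interval included 1: with widened windows (0.958 to 1.88), without SLIT3 (0.977 to 2.67) and without PLXNA4 (0.974 to 2.22). Day 3 had at least 2 times as many peaks in SLIT1, ROBO1, ROBO2 and PLXNA4 (4 of 7), and 29.5% of 500 kb stretches with at least 5 peaks did too. For each single gene the interval of the ratio of shares includes 1, for example 1.46 (0.807 to 2.70) for SLIT3 and 2.03 (0.746 to 6.40) for PLXNA4. The genes were chosen on these counts and each day has 1 library, so these ratios describe the lists and are no test of the day. Among the lists used, sample titles end in a numbered code for day 0 and not for day 3, so the day and how the libraries were made cannot be told apart.

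Most day 0 places recurred on day 3. Of the 45 day 0 control peaks, 37 were overlapped by a day 3 peak (82.2%, 67.9 to 92.0), where 50.1% of the whole list was. Day 3 LSD1 peaks covered 2.50% of the windows and 0.791% of the span, and the shares were not adjusted for this. Of the 85 day 3 peaks, 35 were overlapped by a day 0 peak (41.2%), near the 40.1% of the list. In the upper 50% of both lists by score the share was 20%, against 31.2% of the list. That 20% rests on 50 day 3 peaks and was given no interval, so nothing is drawn from it. In SLIT3, 17 of 19 day 0 peaks were overlapped on day 3, in PLXNA2 9 of 10, in SLIT2 5 of 5 and in ROBO1 2 of 2, but in PLXNA4 3 of 6, in ROBO2 1 of 2 and in SLIT1 0 of 1. With an overlap of at least 50% of both peaks the share was 60%, against 41.4% of the list. After all overlapping peaks were joined, the windows held 102 places, of which 40 carried a day 3 LSD1 peak and no peak of another list (39.2%, against 33.5% of the 32188 places made the same way from the whole lists). Of these 40, 16 lay in SLIT3, 8 in PLXNA4 and 5 in PLXNA2, and 6 of the 102 places carried a day 0 control LSD1 peak alone (5.88%, against 14.9%).

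Knockdown of LSD1+8a was compared with control shRNA on day 0. The windows held 28 knockdown and 45 control LSD1 peaks, and the share of the knockdown list in them was 1.03-fold (0.616 to 1.68) that of the control list, so fewer peaks there went with a shorter list. Among genes with at least 5 peaks in the 2 lists, control had at least 2 times as many in SLIT2 (5 against 2) and SLIT3 (19 against 7). Of 500 kb stretches with at least 5 such peaks, 39% also did. SLIT1, with 1 control peak and no knockdown peak, fell below that minimum. PLXNA4 had 8 knockdown and 6 control peaks and ROBO1 3 and 2, with ratios of shares of 2.20 (0.668 to 7.68) and 2.47 (0.283 to 29.6). For SLIT3 it was 0.607 (0.216 to 1.51). Each of these intervals includes 1, and no difference between knockdown and control was tested.

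By place, 18 of the 28 knockdown peaks were overlapped by a control day 0 peak (64.3%, against 69.4% of the list) and 18 of the 45 control peaks by a knockdown peak (40.0%, against 42.1%). In the upper 50% of both lists by score these shares were 40% (68.8% of the list) and 23.5% (41.7% of the list). They rest on 10 knockdown and 17 control peaks and were given no interval, so nothing is drawn from them. With day 3 control peaks, 20 of 28 knockdown peaks were overlapped (71.4%, 51.3 to 86.8), where 45.5% of the list was, and 20 of the 85 day 3 peaks (23.5%, against 22.2%). The share of knockdown peaks was not adjusted for the higher cover of day 3 peaks in the windows. Of the 102 places, 16 had a peak in all 3 LSD1 lists (15.7%, against 11.5% over the whole lists): 5 in SLIT3, 4 in PLXNA2, 2 each in SLIT2, ROBO1 and PLXNA4, and 1 in ROBO2. SLIT1 had none. The input behind each of these lists is not known here.

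**Figure D3:**
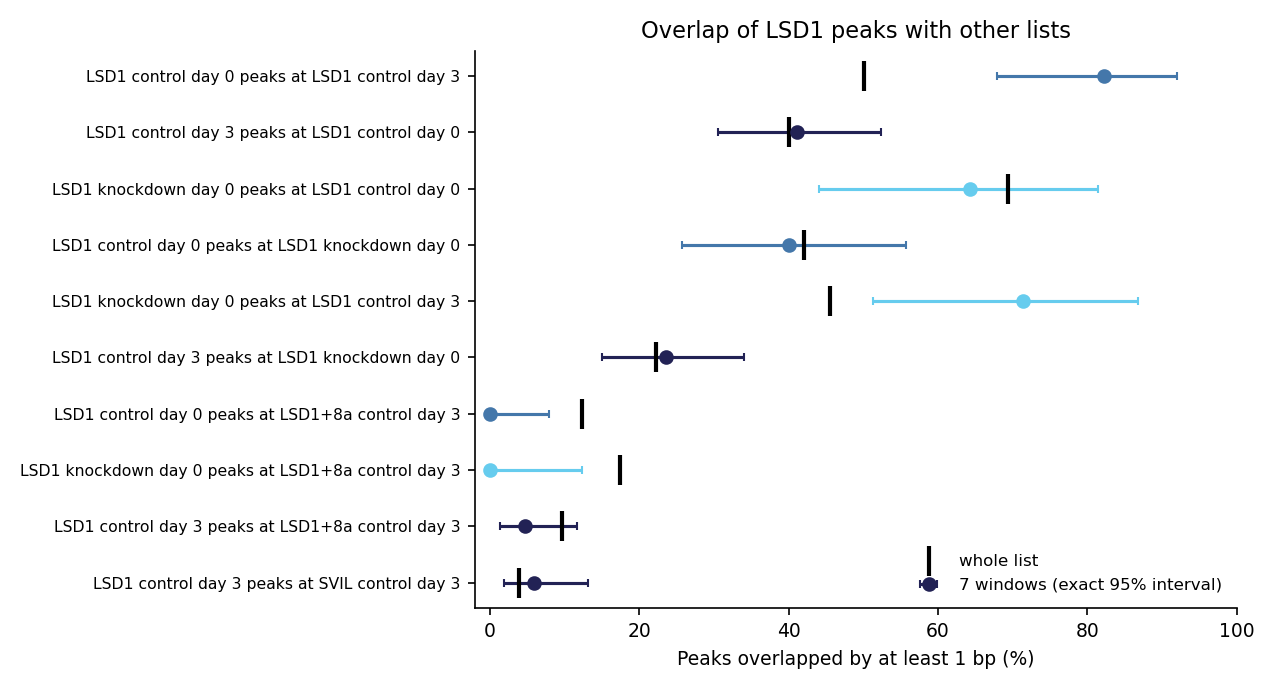
Percentage of LSD1 peaks in the 7 windows overlapped by at least 1 bp by a peak of another list (circles, with exact 95% intervals as bars), beside the percentage over the whole list. Day 0 control peaks at day 3 peaks stand at 82.2%, against 50.1% of the list. No day 0 peak of either kind of cell met one of the 5 LSD1+8a peaks.

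The 5 LSD1+8a peaks lay in SLIT3 (3), ROBO2 (1) and PLXNA4 (1). In SLIT3 they were chr5:168312014-168313061 with 43 tags, chr5:168526311-168527478 with 56 and chr5:168589166-168589925 with 28. The PLXNA4 peak, chr7:132277657-132278743, had 42 tags. These 4 each lay on an LSD1 peak of day 3 control cells, so 4 of 5 did, where 59.6% of the LSD1+8a list does. The ROBO2 peak, chr3:77549943-77550490 with 20 tags, met no peak of another list. None of the 5 met an LSD1 peak of day 0, in control cells (0 of 5, up to 52.2%, against 60.9% of the list) or in knockdown cells (52.4% of the list), and none met a SVIL peak (7.7%). From the other side, 0 of 45 day 0 control LSD1 peaks (up to 7.87%, against 12.3% of the list), 0 of 28 knockdown peaks (up to 12.3%, against 17.4%) and 4 of 85 day 3 peaks (4.71%, against 9.69%) met an LSD1+8a peak. Only 5 LSD1+8a peaks lay there to be met, so these upper limits are narrower than those 5 peaks can bear, and nothing is drawn from them. All 5 had scores below the list's median of 68.5, so 0 of 5 were in its upper 50%, where 50% of the list is by construction.

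The 8 SVIL peaks were in ROBO2 (3), PLXNA4 (3), SLIT1 (1) and ROBO1 (1), and SLIT2, SLIT3 and PLXNA2 had none. At the density of the whole SVIL list, a window as wide as that of SLIT3 would hold 0.358 peaks, so its count of 0, which allows up to 0.492 per 100 kb, says little. The ROBO2 peaks were chr3:77066979-77067262 with 17 tags, chr3:77220278-77220557 with 18 and chr3:77590316-77590501 with 12. The PLXNA4 peaks were chr7:131941656-131942054 with 26 tags, chr7:132070952-132071285 with 21 and chr7:132160539-132160948 with 26. SLIT1 had chr10:98901121-98901454 with 19 tags and ROBO1 chr3:78659598-78659788 with 13. These peaks were narrow, at a median of 309 bp, against 1167 bp for day 3 LSD1 peaks in the windows. Of the 8, 5 lay on a day 3 LSD1 peak (62.5%, 24.5 to 91.5), near the 58.7% of the SVIL list, and 0 on an LSD1+8a peak (up to 36.9%, against 18.6%). Of the 85 day 3 LSD1 peaks, 5 met a SVIL peak (5.88%, against 3.97%). Over 1 Mb on either side of the windows lay 6 SVIL peaks, or 0.0438 per 100 kb, of which 4 were beside PLXNA4.

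Most plexin peaks had more tags than the median of their list. Most also, counted separately, had no higher fold than its median. The ROBO peaks of day 3 were mostly high in fold. On day 3, 25 of the 30 plexin LSD1 peaks had more tags than the list's median of 50, but 9 of 30 had a higher fold than its median of 17.05, where 49.6% of the list has. Of the 30, 14 combined more tags with a lower fold, against 20.3% of the list. Of the 10 ROBO peaks, 8 had a fold above the median, 5 had more tags, and none combined more tags with a lower fold. In control cells on day 0, 7 of the 16 plexin peaks combined more tags with a lower fold (24.6% of the list), and 5 of 16 had a fold above the median (50% of the list). In knockdown cells, 10 of the 14 plexin peaks combined them (23% of the list) and none had a fold above the list's median of 9.13 (49.6% of the list has), with 6 of 6 in PLXNA2 and 4 of 8 in PLXNA4. A fold above that median was also uncommon in the other knockdown peaks, at 2 of 9 for SLIT and 1 of 5 for ROBO. The 45 SLIT peaks of day 3 lay between, with 32 above the median in tags and 23 in fold. SLIT1 alone was like the plexins on day 3. Of its 5 peaks, 4 had more tags, 1 had a higher fold, and 3 combined more tags with a lower fold. These tag counts were not scaled for peak length. Per kb of peak, the plexin medians were 59.1 tags on day 3 (46.0 for the list). They were 34.3 on day 0 in control cells (30.5) and 36.8 in knockdown cells (35.4). The lists do not say what reference the fold was taken against.

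**Figure D4:**
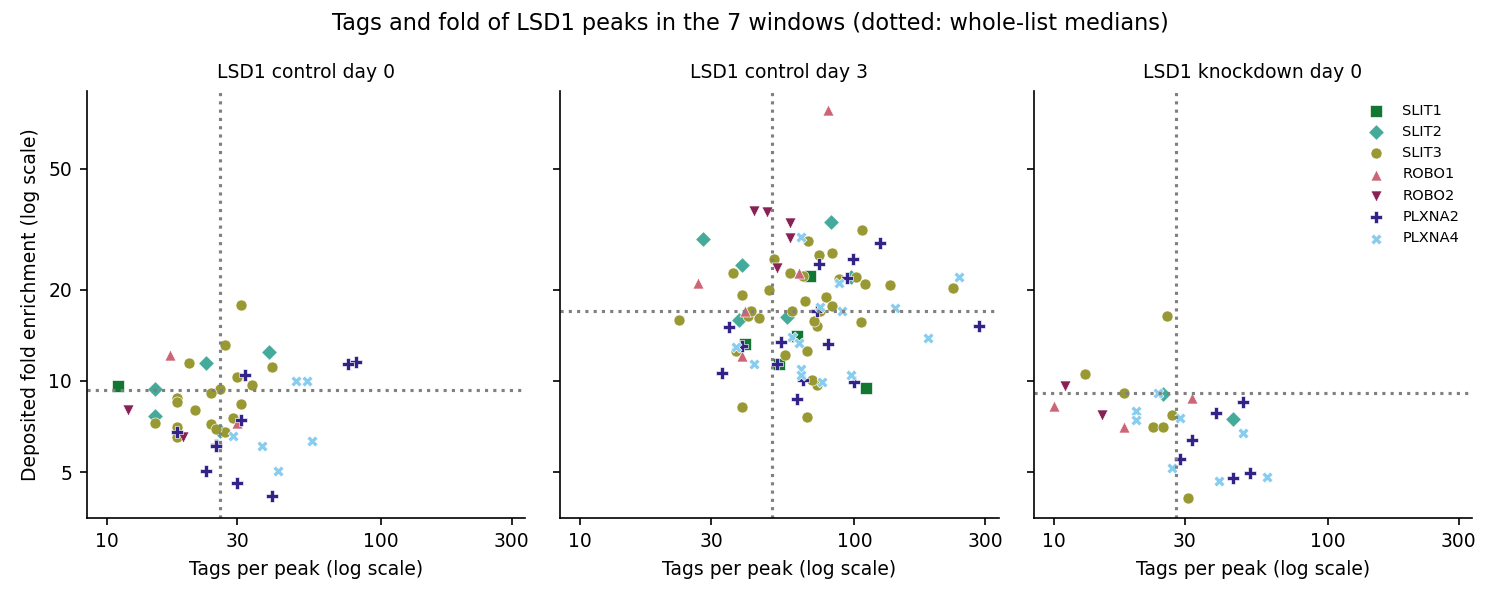
Tags (horizontal, log scale) and deposited fold enrichment (vertical, log scale) of each LSD1 member peak in the 3 LSD1 lists, with marker and colour by gene and dotted lines at the medians of each whole list. On day 3, 14 of the 30 plexin peaks lie to the right of the line for tags and below the line for fold, and no ROBO peak does.

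By score, 50 of the 85 day 3 LSD1 peaks (58.8%, 47.6 to 69.4) were in the upper 50% of their list, against 50% by construction. In control cells on day 0 it was 17 of 45 (37.8%, 23.8 to 53.5), in knockdown cells 10 of 28 (35.7%, 18.6 to 55.9), and of the SVIL peaks 4 of 8 (50.1% of that list). Each of these 3 intervals of the LSD1 lists includes 50%. By gene on day 3, the upper 50% held 1 of 5 SLIT1 peaks, 4 of 6 of SLIT2, 24 of 34 of SLIT3, 2 of 5 of ROBO1, 5 of 5 of ROBO2, 6 of 15 of PLXNA2 and 8 of 15 of PLXNA4.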

How the data were processed

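ChIP-seq was done on SH-SY5Y chromatin, and 5 peak lists, 1 per library, were used; the other 9 ChIP libraries and 9 inputs were not analysed here. The tools named in the submitters' processing notes are CASAVA and Bowtie 1.0.0. Which caller, threshold and input made each list, and the read depth, is not given in the sources used. Those notes name the builds hg19 and mm9 without saying which belongs to the lists; the lists hold chromosomes that the mouse lacks and were read as hg19, the human build named. In the deposited lists, tags per peak are whole-number counts without normalization, and fold enrichment is a ratio from the authors' caller with an unstated reference. The deposited score lost its column name in the file header and served to rank the peaks of each list.

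Groups were taken from the sample titles. Peaks overlapping a window by at least 1 bp were counted, set against each list's density from coordinate 1 to the last peak end of each chromosome (3041.5 Mb in all), and given exact 95% intervals. The interval of a ratio of shares comes from the exact binomial interval of the 2 counts. Stretches along the genome were counted by summit, and the 7 windows were left in. Intervals cover counting error only. Alternatives changed the score or fold minimum, the window edges, the overlap rule, the merging of peaks and the background. The counting was tested on simulated peaks. Python 3.11.15, pandas 2.3.3, NumPy 2.4.6, SciPy 1.17.1 and matplotlib 3.10.9 were used.

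The genes and windows were chosen with earlier results of these data known. The peaks named include the highest-ranked by score of some lists and genes, all peaks of LSD1+8a and SVIL, and the place found in most lists. Not every highest-ranked peak is named, and others were chosen after their values were seen. Further axon guidance genes were not placed, since no hg19 annotation was used.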

Additional observations from a re-analysis of the deposited data

How the results depend on the processing

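No paired analysis was possible because each group has 1 library and no test was run between groups. Of 163 values under alternative settings, for 13 results, 150 stayed within the interval of the reported value and 13 moved out of it. No value whose interval lay on 1 side of 1 crossed 1. Of the values whose interval includes 1, the knockdown to control ratio (1.03) fell below 1 in 6 of 15 alternatives, down to 0.845 without PLXNA4, and the relative density of LSD1+8a (1.00) in 6 of 15, with 0.481 without SLIT3. Without SLIT3, the relative density of LSD1 peaks was 1.25 on day 0 (1.81 reported) and 2.00 on day 3 (2.78 reported), and without ROBO1 it was 3.64 on day 3. Without ROBO2, 100% of LSD1+8a peaks met a day 3 LSD1 peak (80% reported). With the upper 50% of peaks by score, the day 3 to day 0 ratio of shares was 2.39 (1.54 reported), the relative density of LSD1+8a was 0 (1.00 reported), and no LSD1+8a overlap could be given, since no such peak remained. In that upper 50%, 58.8% of day 0 control LSD1 peaks met a day 3 peak (38.6% of the list), 20% of day 3 peaks met a day 0 peak (31.2% of the list), 40% of knockdown peaks met a control peak (68.8% of the list), and 23.5% of control peaks met a knockdown peak (41.7% of the list). None of these shares was given an interval. With an overlap of 50% of both peaks, 60% of day 0 control peaks met a day 3 peak (41.4% of the list) and 0% of SVIL peaks a day 3 LSD1 peak (1.72% of the list), as SVIL peaks are shorter. With a score minimum at the lowest SVIL score, chosen after seeing the data, the relative density of LSD1+8a was 0. Unknown depth and 1 library a group limit every comparison between lists.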
